A study of Arabidopsis thaliana with 24 samples.

Results

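The catalase-dependent part of the stress response is the amount by which the response of the catalase mutant cat2 of Arabidopsis thaliana differed from that of the wild type Col-0. It was taken for every gene as an interaction, the 24 h over 0 h change in cat2 minus the 24 h over 0 h change in Col-0. The contrast used 12 of the 24 libraries of the series. These came from shoots of 3-week-old seedlings in 4 groups of 3 libraries, namely cat2 after 24 h of photorespiratory stress (stressed cat2), cat2 at 0 h (unstressed cat2), Col-0 after 24 h of the stress (stressed Col-0) and Col-0 at 0 h (unstressed Col-0). Seedlings had spent 21 days on agar plates that held 1% sucrose, at 21 °C and with 16 h of light a day. For the stress, the plates were closed with Parafilm, which restricts gas exchange, and kept in continuous light. The other 12 libraries hold the double mutant cat2shr and the mutant shr, which is altered in the transcription factor SHORT-ROOT (SHR), at the same times. The sources used here name neither the cat2 allele nor the plants behind a library, so the p-values reflect the spread between these samples alone, which may be technical. No group was kept unsealed for 24 h, so the seal, the added light and the passing of time cannot be told apart in any genotype.

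Photorespiration releases hydrogen peroxide in leaf peroxisomes when glycolate oxidase oxidises glycolate, and catalase removes it. CAT2 encodes the main catalase of leaves, so a plant without it clears less peroxide when photorespiration runs fast. Hydrogen peroxide is known both as a damaging oxidant and as a signal that alters the transcription of stress genes.

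Library totals in these groups ran from 26.43 to 34.31 M counts. Values of single libraries are counts scaled to a common library size (CPM, counts per M), and differences are on the log2 scale with their standard error (SE). A gene was called at an adjusted p under 0.05 in edgeR's quasi-likelihood test, with Benjamini-Hochberg adjustment over all 20347 genes tested. CAT2 (AT4G35090) measured 29.7, 30.2 and 24.4 CPM in stressed cat2, 13.1, 18.4 and 20.9 CPM in unstressed cat2, 651, 1086 and 934 CPM in stressed Col-0, and 306, 271 and 547 CPM in unstressed Col-0. It was low in every cat2 library, and the libraries of the genotypes did not overlap. Its own interaction was not called (log2 -0.57, SE 0.42, adjusted p = 0.309), but was called without Col-0 replicate 3 at 0 h (log2 -1.06, adjusted p = 0.0424). The other catalase genes of the genome are CAT1 and CAT3. CAT3 (AT1G20620) measured 2797, 2609 and 2385 CPM in stressed cat2, 2988, 2342 and 2209 CPM in unstressed cat2, 3863, 3442 and 3851 CPM in stressed Col-0, and 3022, 2402 and 2663 CPM in unstressed Col-0 (log2 -0.42, SE 0.32, adjusted p = 0.33). Its stressed Col-0 libraries were the highest, and the interaction was not called. CAT1 (AT1G20630) measured 196, 244 and 149 CPM in stressed cat2, 122, 119 and 111 CPM in unstressed cat2, 159.8, 203 and 196 CPM in stressed Col-0, and 128, 104 and 109 CPM in unstressed Col-0 (log2 0.03, SE 0.22, adjusted p = 0.921). It rose by a like amount in cat2 (log2 0.74) and in Col-0 (log2 0.71). SHR, intact in both genotypes, had an interaction of log2 -0.17, SE 0.17, adjusted p = 0.456. The first principal component of the 12 libraries held 74.9% of their variance, and the stressed cat2 libraries lay at one end of it, at 95.4 to 132, with all other libraries at 26.5 or less. The tissue label was checked against marker lists. The 7 mesophyll markers summed to between 8790 and 11100 CPM in stressed cat2, 18000 and 19900 CPM in unstressed cat2, 16500 and 24300 CPM in stressed Col-0, and 24700 and 25500 CPM in unstressed Col-0. Of these 7 markers 4 had a lower interaction (all genes: 19.4%). The 7 root markers summed to at most 19.6 CPM in cat2 at 24 h and at most 35.5 CPM in the other groups. The number of them at 0 was 3 in cat2 at 24 h, 0 in cat2 at 0 h, 2 in Col-0 at 24 h and 2 in Col-0 at 0 h. The 4 xylem markers summed to between 31.4 and 41.7 CPM in cat2 at 24 h and between 53.2 and 70.5 CPM in the other groups. The 7 flower markers summed to between 3.05 and 9.15 CPM in stressed cat2, 1.11 and 1.79 CPM in unstressed cat2, 3.37 and 4.58 CPM in stressed Col-0, and 1.32 and 5.29 CPM in unstressed Col-0. Of the 6 flower markers tested 2 had a higher interaction (all genes: 18.8%), with a median log2 of 1.95 at these low levels. The count was 0 to 3 when single libraries were left out, and 0 without cat2 replicate 2 at 24 h or Col-0 replicate 2 at 0 h. The 5 guard cell markers ran from 69.4 to 74.4 CPM in stressed cat2, against 74.1 to 96.1 CPM in the other groups, and the 3 phloem markers from 397 to 473 CPM, against 401 to 584 CPM. A lower interaction was called in 1 of 3 root markers tested, 3 of 4 xylem markers and 1 of 5 guard cell markers. A higher one was called in 1 of 3 phloem markers. The 3 xylem calls were 0 without cat2 replicate 2 at 24 h. The part of these shifts in the results below was not tested, and in shoot tissue fewer cells of a type and less RNA per cell cannot be told apart.

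The response of cat2 differed from that of Col-0 in 7781 genes, 38.2% of those tested. The interaction was higher in 3825 genes (18.8%) and lower in 3956 (19.4%). A called difference of at least 2-fold was found in 1199 genes with a higher and 899 genes with a lower response in cat2, which are 5.89% and 4.42% of the genes tested, or 10.3% together. The split between directions depended on how libraries were scaled. By library size only, 2537 genes were called higher and 5318 lower, and the median over all genes was -0.18, against -0.03 with TMM scaling. Without Col-0 replicate 2 at 0 h, 2493 genes were called higher. Without cat2shr replicate 1 at 0 h, a library that enters the fit but not the contrast, 2995 were called higher and 5402 lower. Among fits that left out 1 library, the split stayed near even only without a stressed cat2 library (48% to 49.9% of calls higher). Without any other library, shr and cat2shr included, 34.8% to 40.8% of calls were higher. The shares of 18.8% and 19.4% given beside the lists below are those of the fit of all libraries. The lists were chosen with earlier results of these data known, so their counts are a description.

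**Figure D1:**
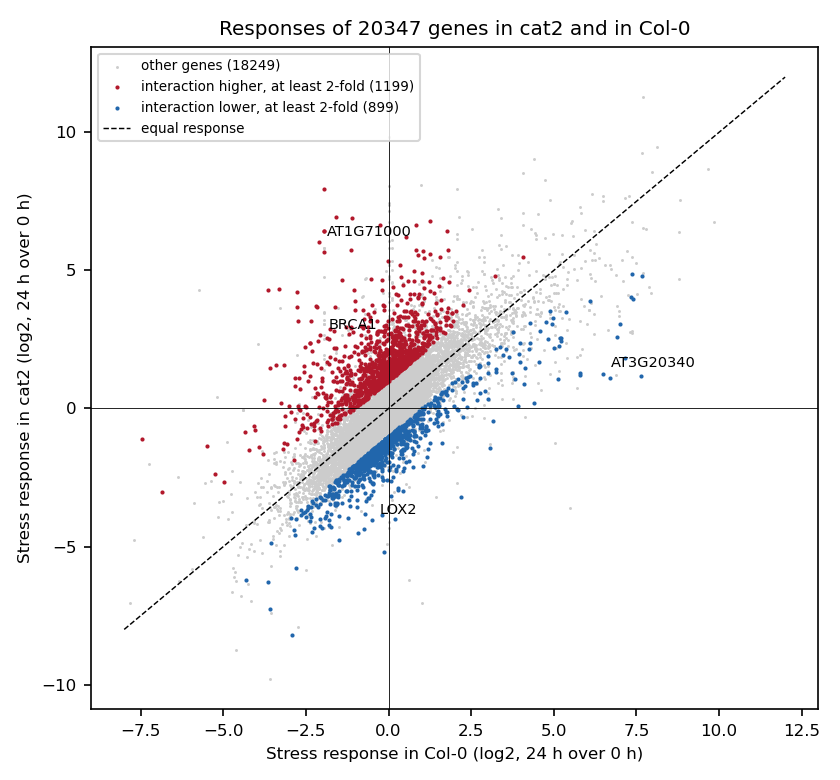
Stress responses (log2, 24 h over 0 h) of the 20347 genes tested in cat2 and in Col-0, 1 point per gene. The 1199 and 899 genes with a called interaction of at least 2-fold are coloured by direction, and the distance of a point from the diagonal is its interaction.

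Genes that rose in cat2 without a call in Col-0 were the most frequent kind among the higher interactions. Of the 1199 genes, 604 (50.4%) were of this kind, 259 (21.6%) rose in both genotypes, and 166 (13.8%) rose in cat2 and fell in Col-0. A further 133 fell in Col-0 and were not called in cat2. Of the 899 genes with a lower interaction, 378 (42%) fell in both genotypes and 304 (33.8%) fell in cat2 without a call in Col-0. Another 77 fell in cat2 and rose in Col-0. Read by genotype at each time, 773 of the 1199 (64.5%) were higher in cat2 at 24 h and not called at 0 h. Among the 899, 561 (62.4%) were lower in cat2 at 24 h and not called at 0 h, while 118 (13.1%) were not called at 24 h and were already higher in cat2 at 0 h. These splits use the same libraries as the interaction and only describe it.

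The highest interaction among the genes named by size was that of AT1G71000, annotated as a chaperone DnaJ-domain protein. It measured 77.8, 68.7 and 79.3 CPM in stressed cat2, 1.17, 1.58 and 0.736 CPM in unstressed cat2, 0, 0.271 and 0.0401 CPM in stressed Col-0, and 0.452, 0.631 and 0.271 CPM in unstressed Col-0. All 3 stressed cat2 libraries stood far above every other library (log2 8.12, SE 1.07, adjusted p = 1.23e-05). AT1G68200, a CCCH-type zinc finger gene, measured 23.9, 23.7 and 14.8 CPM in stressed cat2 and at most 1.15 CPM in any other library of these groups (log2 4.85, SE 0.72, adjusted p = 2.98e-05). AT1G32950, a subtilase gene, measured 50.3, 57.6 and 37.3 CPM in stressed cat2 and at most 1.99 CPM in the others (log2 4.83, SE 1.17, adjusted p = 0.0033). Among these groups, each of these genes was high in stressed cat2 only. AT3G41762, an uncharacterised gene on chromosome 3, measured 69.1, 81.4 and 46.6 CPM in stressed cat2 and at most 1.18 CPM elsewhere (log2 5.83, SE 1.1, adjusted p = 0.000426). This gene lies 811 bases from an 18S ribosomal RNA locus, AT3G41768, whose counts were 11010 to 12105 in cat2 at 24 h, 1991 to 23696 in cat2 at 0 h, 2533 to 3882 in Col-0 at 24 h and 1319 to 34875 in Col-0 at 0 h. A 5.8S ribosomal RNA locus, AT2G01020, had 917 to 1174 counts in cat2 at 24 h and 24 to 80 in the other groups. The part of ribosomal RNA reads in the value of AT3G41762 was not tested.

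Genes of DNA repair and of the DNA damage checkpoint stood among the highest interactions. After DNA breaks, the plant transcription factor SOG1 is known to turn on genes such as the repair gene BRCA1, the ribonucleotide reductase subunit TSO2 and the mitotic cyclin CYCB1;1. In a list of 27 such genes, written after values had been seen, 22 had a higher and 2 a lower interaction (all genes: 18.8% and 19.4%). Their median log2 was 2.52, beside -0.03 over all genes. As the list followed from the values, its count is a description. In cat2 19 of the 27 genes rose and 1 fell (all genes: 38.7% rose, 36.3% fell), while in Col-0 2 rose and 14 fell (all genes: 29.7% rose, 29.6% fell). At 24 h 21 of them were higher in cat2 than in Col-0 (all genes: 31.4%), and at 0 h 12 were (all genes: 11.5%).

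Promoter stretches of the genes AT3G52115 and PARP2 are shown because both hold the palindromic motif known for SOG1 (CTTNNNNNNNAAG, in capitals, which reads the same on both strands). Each is the 150 bases just before the RefSeq gene start, 5′ to 3′ on the strand of the gene, in build TAIR10.1. They are from AT3G52115 (chr3:19325885-19326034, plus strand) and PARP2 (chr4:1049616-1049765, plus strand).
AT3G52115: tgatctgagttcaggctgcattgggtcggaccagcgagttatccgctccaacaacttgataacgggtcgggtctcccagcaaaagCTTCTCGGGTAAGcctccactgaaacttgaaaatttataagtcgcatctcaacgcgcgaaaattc
PARP2: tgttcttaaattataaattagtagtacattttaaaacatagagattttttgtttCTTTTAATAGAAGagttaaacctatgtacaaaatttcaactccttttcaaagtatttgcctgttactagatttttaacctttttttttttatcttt
The matches begin 65 bases before the start in AT3G52115 and 96 in PARP2. In windows of 250 bases before to 50 bases after the start, this motif was found in 7 of the 27 genes of the list (25.9%), in 16.3% of the genes with a 2-fold higher interaction, in 9.81% of those with a 2-fold lower one, and in 11.1% of all 19972 promoters of genes tested. The motif was added after values had been seen, and a match is a description of letters. BRCA1, TSO2 and CYCB1;1 had no match in the 150 bases.

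AT3G52115, annotated as gamma response gene 1, measured 45.8, 43 and 50.3 CPM in stressed cat2, 3.02, 4.21 and 3.33 CPM in unstressed cat2, 0.737, 0.348 and 0.562 CPM in stressed Col-0, and 3.04, 2.31 and 2.17 CPM in unstressed Col-0. The stressed cat2 libraries were the highest and the stressed Col-0 libraries the lowest, and neither overlapped any other group (log2 5.9, SE 0.39, adjusted p = 1.48e-09). TSO2 (AT3G27060), which supplies deoxynucleotides, measured 953, 750.5 and 938 CPM in stressed cat2, 132, 208 and 172 CPM in unstressed cat2, 23.1, 15.2 and 16.8 CPM in stressed Col-0, and 93.3, 101 and 92.7 CPM in unstressed Col-0. Its stressed cat2 libraries were the highest and its stressed Col-0 libraries the lowest (log2 4.75, SE 0.30, adjusted p = 1.31e-09). BRCA1 (AT4G21070) had an interaction of log2 4.72, SE 0.39, adjusted p = 4.19e-08, with 82.9, 68.7 and 74.5 CPM in stressed cat2 and at most 2.66 CPM in stressed Col-0. AT4G02110, annotated as a transcription coactivator, had 58.3, 52.5 and 55.4 CPM in stressed cat2 and at most 2.49 CPM in stressed Col-0 (log2 4.75, SE 0.29, adjusted p = 4.84e-10). All of these rose in cat2 and fell in Col-0.

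Members with other roles behaved unevenly. PARP2, a poly(ADP-ribose) polymerase of the damage response that was chosen after its values were seen, measured 161, 130.3 and 171 CPM in stressed cat2, 18, 28.4 and 21.9 CPM in unstressed cat2, 6.89, 7.71 and 7.35 CPM in stressed Col-0, and 8.94, 7.81 and 7.56 CPM in unstressed Col-0 (log2 2.91, SE 0.28, adjusted p = 2.86e-07). Stressed cat2 was highest, and the unstressed cat2 libraries also stood above all Col-0 libraries. CYCB1;1, which marks cells held at the G2 to M transition after damage, measured 48.5, 40.8 and 34.5 CPM in stressed cat2, 9.69, 14.3 and 11.5 CPM in unstressed cat2, 2.36, 2.17 and 2.77 CPM in stressed Col-0, and 8.07, 7.43 and 7.17 CPM in unstressed Col-0 (log2 3.44, SE 0.33, adjusted p = 2.05e-07). The 2 genotypes thus moved it in opposite directions. In contrast, 24 of 28 genes of the cell cycle and DNA replication list fell in cat2 and 27 fell in Col-0 (all genes: 36.3% and 29.6%). Of the 28, 7 had a higher and 2 a lower interaction (all genes: 18.8% and 19.4%). The lower ones were 0 to 6 when single libraries were left out. The median interaction of this list was 0.08, a value that changes sign with library scaling. Among the upstream parts of the damage pathway, also named after their values were seen, SOG1 itself had a small higher interaction (log2 0.43) and the kinase ATM a lower one (log2 -0.54). The end-joining genes KU70 (log2 0.08) and KU80 (log2 0.04) were not called. The cell cycle inhibitor SMR7 had a higher interaction (log2 3.97), while SMR5 was not called (log2 0.78) and differed between cat2 and Col-0 by log2 6.01 already at 0 h.

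The list of 26S proteasome subunits, of the complex that degrades ubiquitin-tagged proteins, was the only one of the 35 lists in which every tested member was called in 1 direction. All 15 listed subunits had a higher interaction, with a median log2 of 1.61 and a lowest value of 0.78 in RPT5A, an ATPase of the regulatory particle. All 15 rose in cat2, with a median of 1.7, while in Col-0 8 rose and 2 fell, with a median of 0.15 (all genes: 38.7% rose in cat2, 29.7% rose in Col-0, 18.8% had a higher interaction). All 15 were also higher in cat2 at 0 h, by a median of only 0.40. The count of 15 was unchanged without any 1 of the 12 libraries and with scaling by library size only. As this list was also chosen with earlier results of these data known, its count is a description. Among 53 genes whose annotated product names the proteasome, a set made after values were seen, 46 were higher and 1 was lower, with a median of 1.41.

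Promoter stretches of PBB1, RPT3 and PAE1, 150 bases as before in TAIR10.1, are shown because many proteasome genes hold the short core TGGGC (capitals, on either strand, so GCCCA as well) that is known as site II from promoters of proliferation genes. They are from PBB1 (chr3:10152308-10152457, plus strand), RPT3 (chr5:23568902-23569051, plus strand) and PAE1 (chr1:20106078-20106227, minus strand).
PBB1: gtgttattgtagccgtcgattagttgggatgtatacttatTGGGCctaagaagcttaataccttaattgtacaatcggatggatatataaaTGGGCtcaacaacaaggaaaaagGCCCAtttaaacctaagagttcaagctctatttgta
RPT3: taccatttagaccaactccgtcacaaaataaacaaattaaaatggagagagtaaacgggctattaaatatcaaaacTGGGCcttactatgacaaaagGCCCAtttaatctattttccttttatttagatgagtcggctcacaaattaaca
PAE1: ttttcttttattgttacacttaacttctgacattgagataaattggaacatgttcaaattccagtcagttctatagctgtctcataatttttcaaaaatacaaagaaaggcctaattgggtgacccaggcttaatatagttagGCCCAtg
PBB1 holds 3 matches, RPT3 2 and PAE1 1. In the windows of 300 bases the core was found in 30 of the 53 proteasome genes (56.6%), in 28.7% of the genes with a 2-fold higher interaction, and in 29.6% of all promoters. The SOG1-type motif was present in 14 of the 53 (26.4%).

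PAE1 (AT1G53850), an alpha subunit of the core particle, measured 230.1, 225 and 215 CPM in stressed cat2, 53, 63.1 and 61.3 CPM in unstressed cat2, 40.8, 38.5 and 36.3 CPM in stressed Col-0, and 41.8, 39.4 and 40.4 CPM in unstressed Col-0. Stressed cat2 stood well above unstressed cat2, which in turn stood above all Col-0 libraries (log2 1.99, SE 0.10, adjusted p = 8.19e-11). PBB1 (AT3G27430), a catalytic beta subunit, measured 226, 218 and 204 CPM in stressed cat2, 75.5, 85.5 and 81.7 CPM in unstressed cat2, 60, 66.1 and 61.9 CPM in stressed Col-0, and 70.8, 72.2 and 68.1 CPM in unstressed Col-0 (log2 1.58, SE 0.08, adjusted p = 8.19e-11). RPT3 (AT5G58290), an ATPase of the regulatory particle, measured 1086, 1018 and 923 CPM in stressed cat2, 166, 199 and 183 CPM in unstressed cat2, 154, 170 and 152 CPM in stressed Col-0, and 124, 121 and 123 CPM in unstressed Col-0 (log2 2.1, SE 0.11, adjusted p = 2.1e-10). In both genes the stressed cat2 libraries lay above all others. NAC053, known as an activator of proteasome genes under proteotoxic stress, also had a higher interaction (log2 1.31, SE 0.21, adjusted p = 8.36e-05).

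**Figure D2:**
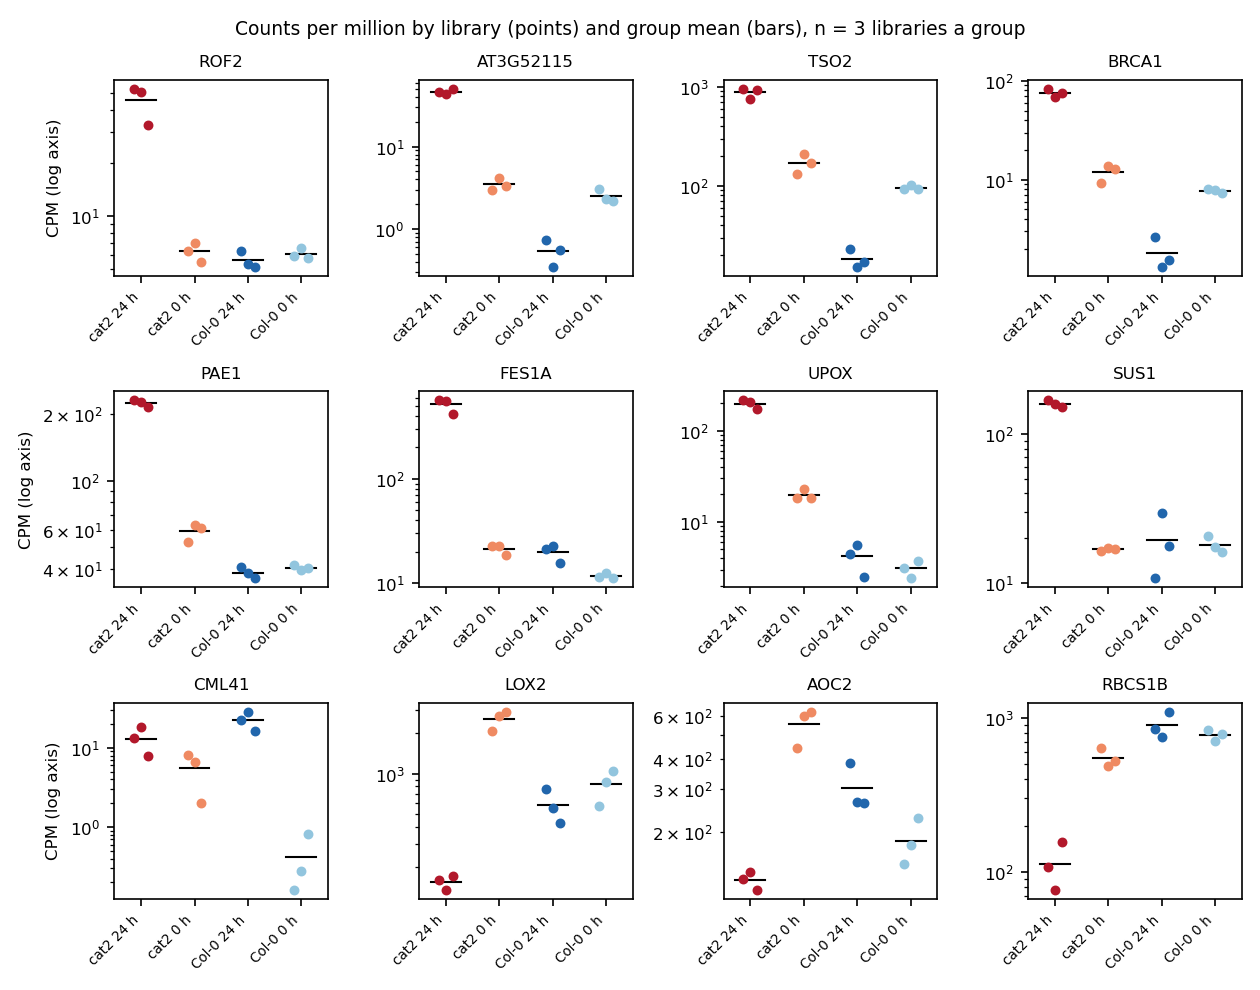
CPM (log axis) of 12 genes in the 12 libraries, with 1 point per library, a bar at the mean of each group, and groups in the order cat2 24 h, cat2 0 h, Col-0 24 h and Col-0 0 h. TSO2, PAE1, FES1A, UPOX and SUS1 were highest in cat2 at 24 h, CML41 was lowest in Col-0 at 0 h, and LOX2, AOC2 and RBCS1B were lowest in cat2 at 24 h.

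The list of heat shock proteins, which hold and refold damaged proteins, and of heat shock factors rose in more members in cat2 than in Col-0. Of 29 members tested of 32, 16 had a higher and 1 a lower interaction (all genes: 18.8% and 19.4%), with a median of 1.99. The 3 members under the filter were HSFB1, HSP22.0 and APX2. In cat2 26 rose and 1 fell (median 2.8), against 12 that rose and 2 that fell in Col-0 (median 0.53), beside 38.7% of all genes that rose in cat2 and 29.7% in Col-0. FES1A (AT3G09350), a partner of HSP70, measured 566, 564 and 422 CPM in stressed cat2, 22.8, 22.4 and 18.6 CPM in unstressed cat2, 21.2, 22.9 and 15.6 CPM in stressed Col-0, and 11.3, 12.5 and 11.1 CPM in unstressed Col-0. The stressed cat2 libraries were the highest, and those of the other groups lay between 11.1 and 22.9 CPM (log2 3.83, SE 0.35, adjusted p = 2.43e-07). ROF2 (AT5G48570), a heat-induced peptidyl-prolyl isomerase, measured 53, 50.9 and 32.8 CPM in stressed cat2, 6.34, 7.04 and 5.47 CPM in unstressed cat2, 6.3, 5.3 and 5.14 CPM in stressed Col-0, and 5.94, 6.55 and 5.74 CPM in unstressed Col-0 (log2 2.98, SE 0.30, adjusted p = 3.5e-07). Stressed cat2 alone was high, and the other groups overlapped. ROF1, its close relative, had an interaction of log2 1.66, SE 0.12, adjusted p = 6.91e-09. Another 3 members, the disaggregase HSP101 (log2 3.85), the co-chaperone HOP3 (log2 4.39) and the transcription factor DREB2A (log2 3.10), were called higher as well and were named after their values were seen. The member with a lower interaction was the factor HSFA7A (log2 -1.01). AT1G07400, a small heat shock protein gene among the highest interactions, measured 194, 189 and 145 CPM in stressed cat2, 4.02, 3.91 and 1.85 CPM in unstressed cat2, 1.03, 1.39 and 0.602 CPM in stressed Col-0, and 0.71, 0.386 and 0.62 CPM in unstressed Col-0 (log2 4.94, SE 1.3, adjusted p = 0.00589).

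The promoter of BAG6, a calmodulin-binding co-chaperone chosen after its values were seen, is shown for its heat shock element (GAANNTTC in capitals, the same on both strands), 34 bases before the start. The stretch is from TAIR10.1 (chr2:18985983-18986132, plus strand).
BAG6: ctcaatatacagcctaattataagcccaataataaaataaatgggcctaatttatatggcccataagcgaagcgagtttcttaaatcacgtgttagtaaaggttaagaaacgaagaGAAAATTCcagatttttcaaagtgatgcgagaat
BAG6 measured 48.9, 54.2 and 27.8 CPM in stressed cat2, 28, 28.3 and 25 CPM in unstressed cat2, 14.2, 12.7 and 13.9 CPM in stressed Col-0, and 25.8, 27.6 and 29.5 CPM in unstressed Col-0 (log2 1.71, SE 0.25, adjusted p = 3.3e-05). Stressed cat2 replicate 3 overlapped the unstressed libraries, and the stressed Col-0 libraries were the lowest. This element was found in 13 of the 29 promoters of the heat shock list (44.8%), in 16.4% of the genes with a 2-fold higher interaction and in 11.5% of all promoters. FES1A, ROF1 and ROF2 had no match in the 150 bases.

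**Figure D3:**
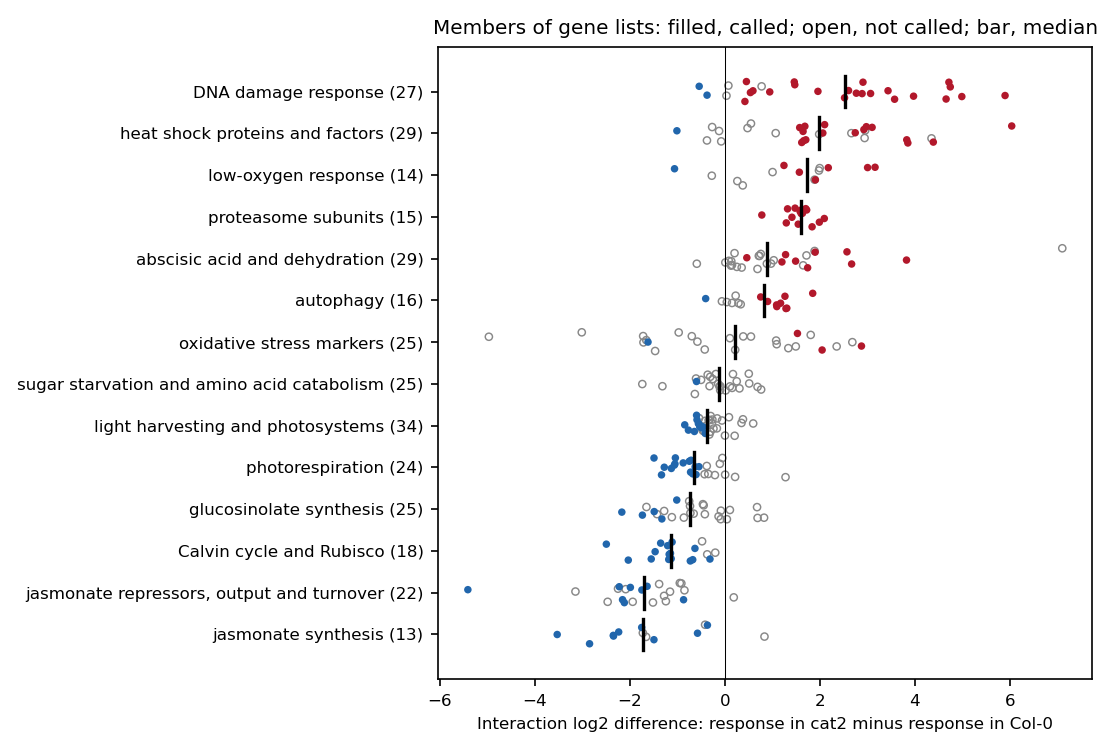
Interaction (log2) of every tested member of the gene lists, 1 point per gene, filled where called, with a bar at the median of each list. All 15 proteasome members are called above 0, and all 18 Calvin cycle members lie below 0, 15 of them called.

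Genes of the low-oxygen response, which ferment sugar and replace respiration when oxygen is short, gave 6 higher and 1 lower interaction among 14 (all genes: 18.8% and 19.4%), with a median of 1.73. SUS1 (AT5G20830), a sucrose synthase that opens sucrose for glycolysis, measured 169.5, 161 and 152 CPM in stressed cat2, 16.4, 17.1 and 17 CPM in unstressed cat2, 10.7, 29.5 and 17.8 CPM in stressed Col-0, and 20.8, 17.5 and 16.1 CPM in unstressed Col-0. Stressed cat2 was high and the other groups overlapped (log2 3.16, SE 0.41, adjusted p = 1.08e-05). ALAAT1 (AT1G17290), an alanine aminotransferase, measured 1373, 1359 and 1230 CPM in stressed cat2, 325, 383 and 318 CPM in unstressed cat2, 353, 368 and 331 CPM in stressed Col-0, and 211, 220.5 and 215 CPM in unstressed Col-0 (log2 1.25, SE 0.12, adjusted p = 2.68e-07). It was again highest in stressed cat2, while stressed Col-0 and unstressed cat2 overlapped. The fermentation genes PDC1 (log2 3.01) and ADH1 (log2 2.18), named after their values were seen, were called as well, and both were already higher in cat2 at 0 h (log2 4.42 and 2.47).

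Autophagy genes, which recycle cell content through the vacuole, rose in cat2 in 16 of 16 members and in Col-0 in 13 of 16 (all genes: 38.7% and 29.7%). Their interaction was higher in 9 and lower in 1, the ubiquitin-like ATG8G (all genes: 18.8% and 19.4%), with a median of 0.83. NBR1 (AT4G24690), the receptor that delivers ubiquitinated aggregates, measured 1252, 1212 and 1042 CPM in stressed cat2, 346, 392 and 325 CPM in unstressed cat2, 396, 435 and 400.5 CPM in stressed Col-0, and 286, 289 and 268 CPM in unstressed Col-0 (log2 1.18, SE 0.13, adjusted p = 1.53e-06). Stressed cat2 stood above all other libraries by more than the spread within any group. The conjugating enzyme ATG7 had an interaction of log2 1.29, SE 0.15, adjusted p = 1.65e-06.

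Abscisic acid and dehydration genes had 9 higher and no lower interactions among 29 (all genes: 18.8% and 19.4%), with a median of 0.89. In cat2 16 rose and 8 fell (all genes: 38.7% and 36.3%), and in Col-0 7 rose and 15 fell (all genes: 29.7% and 29.6%). ABF3 (AT4G34000), a transcription factor of abscisic acid signalling, measured 36.1, 39.8 and 32.4 CPM in stressed cat2, 24.7, 28.1 and 22 CPM in unstressed cat2, 22.2, 29.2 and 29.5 CPM in stressed Col-0, and 43.3, 47.9 and 37.3 CPM in unstressed Col-0. It was higher at 24 h in cat2 and lower at 24 h in Col-0 (log2 1.2, SE 0.24, adjusted p = 0.00053). HAI2 (AT1G07430), a phosphatase that dampens this signalling, measured 5.51, 5.36 and 2.08 CPM in stressed cat2, 0.872, 0.742 and 1.22 CPM in unstressed cat2, 3.13, 2.01 and 2.49 CPM in stressed Col-0, and 5.62, 10.2 and 8.26 CPM in unstressed Col-0 (log2 3.83, SE 0.90, adjusted p = 0.00271). Its highest libraries were those of unstressed Col-0. The count of 9 was 4 without Col-0 replicate 3 at 24 h and 5 without Col-0 replicate 2 at 24 h or at 0 h, and it was 15 in a fit of the 12 libraries only.

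Oxidative stress markers rose in both genotypes and were already high in cat2 at 0 h, and few were called in the interaction. Of 25 members, 21 rose in cat2 and 13 in Col-0 (all genes: 38.7% and 29.7%), with medians of 2.34 and 2.18. At 0 h 19 were higher in cat2 than in Col-0 (all genes: 11.5%), with a median of 3.35. At 24 h 22 were (all genes: 31.4%), with a median of 3.17. Only UPOX, WRKY6 and LTI30 had a higher and OPR1 a lower interaction (all genes: 18.8% and 19.4%). The median of 0.22 ran from -0.22 to 0.61 when single libraries were left out. The calls of WRKY6 and LTI30 were lost without some single libraries, WRKY6 without cat2 replicate 3 at 0 h (adjusted p = 0.0524), Col-0 replicate 1 at 24 h (0.0543) or at 0 h (0.0519), and LTI30 without Col-0 replicate 2 at 0 h (0.0517). When cat2 replicate 1, 2 or 3 at 24 h, cat2 replicate 2 at 0 h, Col-0 replicate 2 at 24 h or Col-0 replicate 1 at 0 h was left out, no member was called lower, OPR1 included. There were 3 lower ones without cat2 replicate 3 at 0 h or in the fit of the 12 libraries only, and 2 without Col-0 replicate 1 at 24 h or Col-0 replicate 3 at 0 h. The promoter of UPOX, a mitochondrial protein gene used as a marker of oxidative stress, is shown because it holds the letters CTTGNNNNNCANG (in capitals, both strands searched) known from genes of mitochondrial dysfunction, 51 bases before the start. The stretch is from TAIR10.1 (chr2:9254228-9254377, plus strand).
UPOX: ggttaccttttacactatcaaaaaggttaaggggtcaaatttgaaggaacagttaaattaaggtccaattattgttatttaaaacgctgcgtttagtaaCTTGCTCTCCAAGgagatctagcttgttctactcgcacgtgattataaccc
UPOX measured 214, 205 and 173 CPM in stressed cat2, 18.5, 23 and 18.1 CPM in unstressed cat2, 4.42, 5.65 and 2.49 CPM in stressed Col-0, and 3.16, 2.42 and 3.76 CPM in unstressed Col-0. Stressed cat2 was highest, and unstressed cat2 was higher than any Col-0 library (log2 2.88, SE 0.46, adjusted p = 9.32e-05). This motif, added after values had been seen, was found in 3.32% of the promoters with a 2-fold higher interaction and 1.76% of all.

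**Figure D4:**
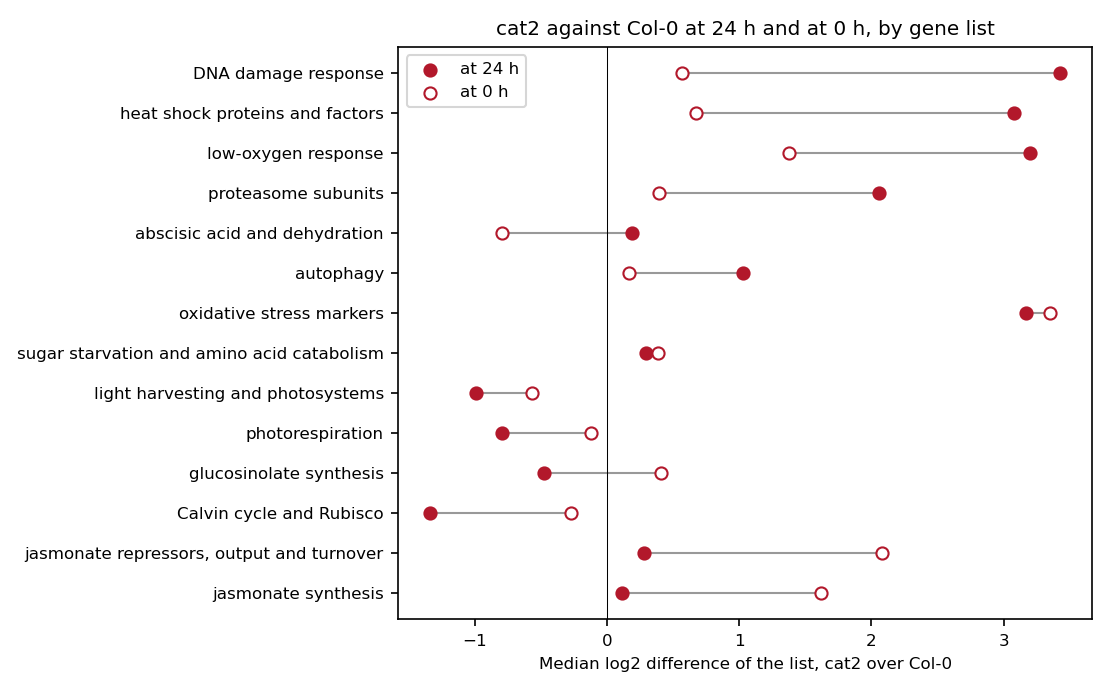
Median log2 difference of cat2 over Col-0 for 14 gene lists, filled at 24 h and open at 0 h. Oxidative stress markers lie high at both times (3.17 at 24 h, 3.35 at 0 h), proteasome subunits are higher at 24 h (2.06) than at 0 h (0.40), and jasmonate synthesis genes are higher at 0 h (1.62) than at 24 h (0.11).

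Several low interactions came with a low level in unstressed Col-0 and a higher one in unstressed cat2. AT3G20340, an uncharacterised gene, measured 138, 161 and 126 CPM in stressed cat2, 54.6, 65.3 and 58.2 CPM in unstressed cat2, 43.6, 91.8 and 60.4 CPM in stressed Col-0, and 0.743, 0.771 and 0.659 CPM in unstressed Col-0. Unstressed Col-0 was low and stressed cat2 the highest, and unstressed cat2 overlapped stressed Col-0 (log2 -5.22, SE 0.65, adjusted p = 8.35e-06). CYP81D11 (AT3G28740), a cytochrome P450 induced by reactive chemicals, measured 387, 489 and 364 CPM in stressed cat2, 327, 457 and 305 CPM in unstressed cat2, 77.1, 319 and 108 CPM in stressed Col-0, and 7.59, 7.81 and 8.37 CPM in unstressed Col-0 (log2 -4.22, SE 0.76, adjusted p = 0.000286). The cat2 libraries overlapped between times, and the Col-0 libraries did not. APX1 (AT1G07890), the cytosolic ascorbate peroxidase, measured 1207, 1170 and 1177 CPM in stressed cat2, 1292, 1375 and 1412 CPM in unstressed cat2, 481, 543 and 397 CPM in stressed Col-0, and 195, 120 and 166 CPM in unstressed Col-0 (log2 -1.76, SE 0.26, adjusted p = 3.11e-05). All cat2 libraries stood above all Col-0 libraries at both times, and the gene rose in Col-0 while its change in cat2 was not called (log2 -0.20). CML41, a calmodulin-like protein gene, was also lowest in unstressed Col-0 (log2 -4.55, SE 0.79, adjusted p = 0.000187).

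Other low interactions came with low levels in stressed cat2. BAM6 (AT2G32290), of the beta-amylase family, measured 0.861, 0.717 and 1.17 CPM in stressed cat2, 15.7, 14.1 and 10.9 CPM in unstressed cat2, 17.7, 17.9 and 18.6 CPM in stressed Col-0, and 22.5, 19 and 20.2 CPM in unstressed Col-0. Stressed cat2 alone was low (log2 -3.68, SE 0.44, adjusted p = 3.85e-06). MSRB6 (AT4G04840), a methionine sulfoxide reductase, measured 8.96, 5.67 and 7.44 CPM in stressed cat2, 128, 163 and 164 CPM in unstressed cat2, 52.8, 32.2 and 34.6 CPM in stressed Col-0, and 62.3, 56.8 and 83.1 CPM in unstressed Col-0 (log2 -3.61, SE 0.54, adjusted p = 5.38e-05). It was highest in unstressed cat2 and lowest in stressed cat2. ENH1 (AT5G17170), a chloroplast rubredoxin-type protein, measured 20.8, 18 and 31.6 CPM in stressed cat2, 68.3, 53.1 and 45.4 CPM in unstressed cat2, 114, 121 and 147 CPM in stressed Col-0, and 57, 27.2 and 40.2 CPM in unstressed Col-0 (log2 -2.86, SE 0.54, adjusted p = 0.000465). It fell in cat2 and rose in Col-0, with the stressed libraries of the genotypes apart.

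Jasmonate genes were also high in unstressed cat2. Of 13 synthesis genes tested, 9 had a lower and none a higher interaction (all genes: 19.4% and 18.8%), with a median of -1.72. In cat2 11 fell and 1 rose (all genes: 36.3% and 38.7%), and in Col-0 6 fell and 2 rose (all genes: 29.6% and 29.7%). At 0 h 10 were higher in cat2 than in Col-0 (all genes: 11.5%). LOX2 (AT3G45140), the lipoxygenase that starts the pathway, measured 161, 136 and 170.4 CPM in stressed cat2, 2084, 2687 and 2884 CPM in unstressed cat2, 768, 548 and 429.8 CPM in stressed Col-0, and 577, 864 and 1050 CPM in unstressed Col-0. Unstressed cat2 was the highest group and stressed cat2 the lowest, with no overlap (log2 -3.52, SE 0.45, adjusted p = 9e-06). AOC2 (AT3G25770), which closes the jasmonate ring, measured 128, 138 and 116 CPM in stressed cat2, 444, 595 and 621 CPM in unstressed cat2, 383, 266 and 264 CPM in stressed Col-0, and 148, 177 and 228 CPM in unstressed Col-0 (log2 -2.84, SE 0.41, adjusted p = 2.87e-05). It fell in cat2 and rose in Col-0. Among 22 genes of jasmonate repressors, output and turnover, 8 were lower and none higher, with a median of -1.69. The count of 8 was 4 without Col-0 replicate 1 at 24 h and 5 without cat2 replicate 3 at 24 h or Col-0 replicate 1 at 0 h. It was 14 in the fit of the 12 libraries only or without shr replicate 1 at 0 h, and 15 without shr replicate 2 at 0 h. MYC2 (AT1G32640), the main transcription factor of this pathway, measured 53.6, 53.1 and 40.6 CPM in stressed cat2, 207, 329.7 and 255 CPM in unstressed cat2, 93.3, 52.1 and 57.5 CPM in stressed Col-0, and 54.6, 66.8 and 131 CPM in unstressed Col-0 (log2 -2.11, SE 0.60, adjusted p = 0.00955). Unstressed cat2 was high, and stressed Col-0 overlapped both remaining groups.

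Calvin cycle genes, which fix carbon dioxide, fell widely in cat2. Of 18 Calvin cycle and Rubisco genes 15 had a lower and none a higher interaction (all genes: 19.4% and 18.8%), with a median of -1.13. In cat2 17 of 18 fell (all genes: 36.3%), against 7 that fell and 2 that rose in Col-0 (all genes: 29.6% and 29.7%). RBCS1B (AT5G38430), a small subunit of Rubisco, measured 108, 76.7 and 156 CPM in stressed cat2, 636, 485 and 525 CPM in unstressed cat2, 849, 752 and 1094 CPM in stressed Col-0, and 830.5, 703 and 786 CPM in unstressed Col-0. Stressed cat2 lay below all other libraries (log2 -2.49, SE 0.29, adjusted p = 2.41e-06). RBCS genes are close copies, so reads may be split between them. RPI3, a ribose-5-phosphate isomerase, had an interaction of log2 -1.46, SE 0.16, adjusted p = 7.68e-07. The summed mesophyll markers were also lowest in stressed cat2, as given above, and its part in these results was not tested.

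Photorespiration genes, the pathway whose peroxide catalase removes, had 15 lower and no higher interactions among 24 (all genes: 19.4% and 18.8%), with a median of -0.65. GDCT (AT1G11860), of the glycine decarboxylase complex in mitochondria, measured 246, 212 and 307 CPM in stressed cat2, 822, 809.5 and 799.7 CPM in unstressed cat2, 736, 702 and 949.9 CPM in stressed Col-0, and 1026, 981 and 1012 CPM in unstressed Col-0. It was lowest in stressed cat2 (log2 -1.33, SE 0.17, adjusted p = 5.64e-06). GOX2 (AT3G14415), the glycolate oxidase that makes the peroxide, measured 392, 408 and 433 CPM in stressed cat2, 619, 681 and 625 CPM in unstressed cat2, 769.5, 790.5 and 939 CPM in stressed Col-0, and 636, 594 and 645 CPM in unstressed Col-0 (log2 -1.06, SE 0.14, adjusted p = 8.35e-06). It fell in cat2 and rose in Col-0. GS2, the chloroplast glutamine synthetase that fixes the ammonia released, had an interaction of log2 -1.04, SE 0.11, adjusted p = 8.34e-07. Light-harvesting and photosystem genes fell in both genotypes, 34 of 34 in cat2 and 33 of 34 in Col-0 (all genes: 36.3% and 29.6%). Of these 34, 11 had a lower interaction, with a median of -0.37. That count was 6 and 7 without cat2 replicates 2 and 1 at 24 h, and 17 to 23 without cat2 replicate 3 at 24 h or at 0 h, Col-0 replicate 1 or 2 at 24 h, or Col-0 replicate 2 or 3 at 0 h. Without any one of the 12 shr and cat2shr libraries it was 17 to 21. It was 22 with scaling by library size only.

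Antioxidant enzymes were mixed, with 6 higher and 11 lower interactions among 32 (all genes: 18.8% and 19.4%) and a median of -0.30, and the 6 were 3 without any of 9 of the 12 libraries. Glucosinolate synthesis genes fell in 22 of 25 members in each genotype (all genes: 36.3% in cat2 and 29.6% in Col-0). They had 5 lower interactions, a share near the 19.4% of all genes, and a median of -0.72. The 5 were 8 without Col-0 replicate 3 or shr replicate 2 at 0 h. SOT18, a sulfotransferase of this pathway, had an interaction of log2 -1.73, SE 0.16, adjusted p = 1.13e-07. Sugar starvation genes rose in 24 of 25 members in each genotype (all genes: 38.7% in cat2 and 29.7% in Col-0). Of these 25, 1 had a called interaction, which was lower (all genes: 19.4%). There were 4 lower ones without Col-0 replicate 1 at 24 h, 2 lower ones with DESeq2, by library size only or in the fit of the 12 libraries only, and 2 higher and no lower ones without cat2 replicate 3 at 24 h. Among 6 reference genes 1 was called, UBC9 (log2 0.50, adjusted p = 0.0237). The call of UBC9 was lost without each of 11 of the 12 libraries (the exception is cat2 replicate 3 at 24 h), by library size only (log2 0.345, adjusted p = 0.138) and with no filter (adjusted p = 0.0648).

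Smaller groups moved in part. Of 17 genes of the unfolded protein response of the endoplasmic reticulum 6 had a higher and 1 a lower interaction (all genes: 18.8% and 19.4%), with a median of 0.21. The counts were 5 to 7 and 1 to 3 when single libraries were left out, and 2 or 3 were lower in 21 of the 24 such fits. BI-1 (AT5G47120), an inhibitor of cell death in this membrane, measured 184, 190.1 and 141 CPM in stressed cat2, 62.2, 77.9 and 63.2 CPM in unstressed cat2, 48.5, 56.5 and 51 CPM in stressed Col-0, and 61, 63.5 and 59.7 CPM in unstressed Col-0. Stressed cat2 alone was high (log2 1.58, SE 0.17, adjusted p = 9.75e-07). Of 9 genes of chlorophyll breakdown 1 had a higher and 4 a lower interaction (all genes: 18.8% and 19.4%), with a median of -0.19. NYC1 (AT4G13250), which reduces chlorophyll b, measured 169, 197 and 166 CPM in stressed cat2, 208, 168 and 165 CPM in unstressed cat2, 379.6, 498 and 546 CPM in stressed Col-0, and 188, 102 and 142 CPM in unstressed Col-0 (log2 -1.74, SE 0.43, adjusted p = 0.004). It was highest in stressed Col-0, and the other groups overlapped.

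The cat2 effect was also measured without SHR, as the response of cat2shr minus that of shr. These 12 libraries are not in the contrast with SHR. Both contrasts came from 1 fit of all 24 libraries, so the filter, scaling and dispersion were shared. The interaction without SHR was called in 7184 genes (35.3%), 3559 higher (17.5%) and 3625 lower (17.8%). Of the 1199 genes with a 2-fold higher interaction in plants with SHR, 517 (43.1%) were called higher without SHR and 30 (2.5%) lower. Of the 899 with a lower one, 451 (50.2%) were lower without SHR and 34 (3.78%) higher. The medians were 1.59 with SHR and 0.60 without for the higher genes, and -1.29 with SHR and -0.58 without for the lower ones. As the genes were chosen for their size with SHR, the medians are a description and carry no test. The three-way difference, with SHR minus without SHR, was called in 2794 genes (13.7%), 1403 higher (6.9%) and 1391 lower (6.84%). In unstressed shr, replicate 1 lay farther from both other libraries than these from each other (chi-square of counts per degree of freedom 45.7 and 41, against 36.7), and so did replicate 1 of unstressed cat2shr (41 and 45.3, against 22.9) and replicate 3 of stressed cat2 (24.2 and 54, against 11.7). The counts below are also given without shr replicate 1 or cat2shr replicate 1 at 0 h, which were chosen after the data were seen.

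Most DNA damage genes and all listed proteasome subunits differed between the backgrounds. Of 27 DNA damage genes 19 had a higher three-way difference and none a lower one, beside 19 without shr replicate 1 and 18 without cat2shr replicate 1 at 0 h (all genes: 6.9% higher). This list was written after the interactions with SHR were seen. The three-way difference contains them, so the count is a description. AT3G52115 measured 1.24, 1.26 and 2.49 CPM in stressed cat2shr, 1.98, 2.06 and 3.57 CPM in unstressed cat2shr, 2.35, 1.89 and 2.4 CPM in stressed shr, and 2.1, 1.9 and 2.51 CPM in unstressed shr. These 4 groups overlapped, and the interaction without SHR was log2 -0.63 (adjusted p = 0.193), with a three-way difference of log2 6.53, SE 0.54, adjusted p = 4.35e-07. All 15 proteasome subunits had a higher three-way difference, also without any one of the 24 libraries. Without SHR, 13 of 15 had a higher interaction (all genes: 17.5%), with a median of 0.41 for the list. The 13 were 8 without cat2shr replicate 3 at 24 h, cat2shr replicate 1 at 0 h, shr replicate 1 or 2 at 24 h, or shr replicate 3 at 0 h. PAE1 measured 68.8, 73.6 and 74.8 CPM in stressed cat2shr, 46.2, 53.2 and 53.6 CPM in unstressed cat2shr, 55.7, 50.8 and 55.8 CPM in stressed shr, and 44.9, 44.9 and 47.3 CPM in unstressed shr. It was a little higher in stressed cat2shr than in the other groups (three-way difference log2 1.73, SE 0.14, adjusted p = 3e-07). Of 28 cell cycle and DNA replication genes 13 had a higher three-way difference and none a lower one (all genes: 6.9% and 6.84%). These 13 were 10 without cat2shr replicate 1 at 0 h and 8 without shr replicate 2 at 0 h. Without SHR, 13 of the 28 had a lower interaction and none a higher one (all genes: 17.8% and 17.5%).

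**Figure D5:**
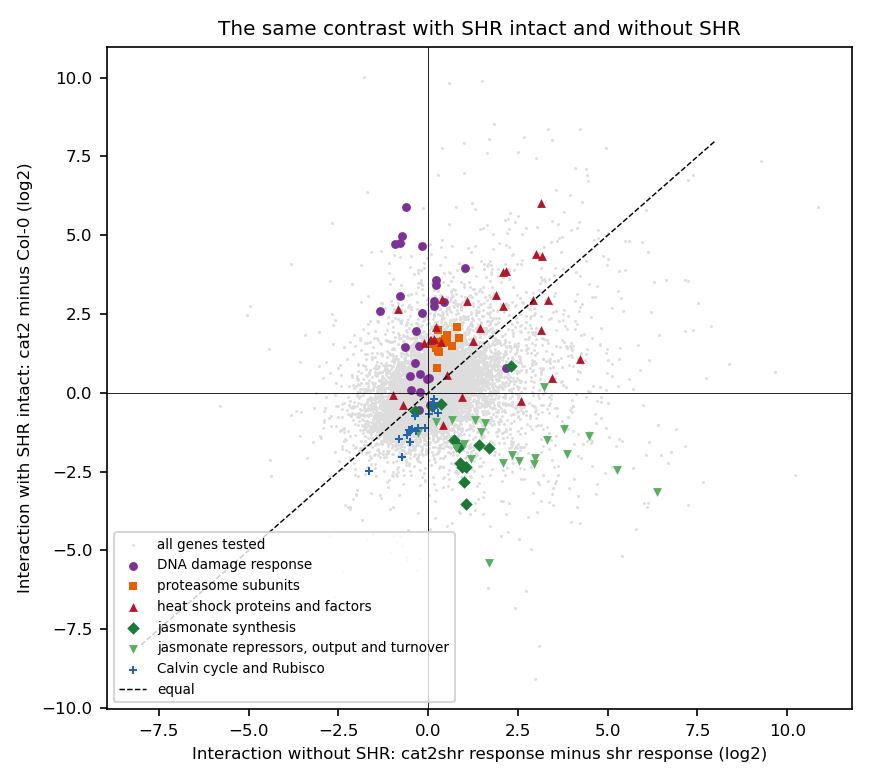
Interaction (log2) with SHR (cat2 minus Col-0 response, vertical) and without SHR (cat2shr minus shr response, horizontal), 1 point per gene, in grey for all genes and in colour for 6 lists. DNA damage genes have a median of 2.52 with SHR and -0.23 without it, and jasmonate repressor, output and turnover genes -1.69 with SHR and 2.21 without it.

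Heat shock genes and oxidative stress markers also had higher interactions without SHR. Heat shock genes had 13 higher interactions among 29 without SHR (all genes: 17.5%), with a median of 1.25. They had 7 higher and 2 lower three-way differences (all genes: 6.9% and 6.84%), so the lower ones were near the share of all genes. These counts were 6 and 4 without shr replicate 1 and 6 and 2 without cat2shr replicate 1 at 0 h. The 13 were 6 without shr replicate 3 at 0 h. ROF2 measured 7.86, 10.8 and 5.82 CPM in stressed cat2shr, 8.07, 5.83 and 6.97 CPM in unstressed cat2shr, 5.63, 5.9 and 6.99 CPM in stressed shr, and 5.94, 6.35 and 8.4 CPM in unstressed shr, with no interaction called and a three-way difference of log2 2.6, SE 0.41, adjusted p = 0.000414. SUS1 had a higher interaction without SHR (log2 3.54), and its three-way difference was not called (log2 -0.38, SE 0.56, adjusted p = 0.715). UPOX was likewise higher without SHR (log2 2.33), with a three-way difference of log2 0.55, SE 0.63, adjusted p = 0.623. Oxidative stress markers as a list had 15 of 25 higher interactions without SHR (all genes: 17.5%), with a median of 2.62. They had 6 lower three-way differences (all genes: 6.84%), which were 10 without shr replicate 1 and 4 without cat2shr replicate 1 at 0 h.

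Jasmonate genes had median interactions of opposite sign in the backgrounds. Without SHR, 15 of 22 repressor, output and turnover genes had a higher interaction (all genes: 17.5%), with a median of 2.21. A lower three-way difference was called in 15, beside 19 without shr replicate 1 and 16 without cat2shr replicate 1 at 0 h (all genes: 6.84% lower). The 15 higher interactions without SHR were 7 to 9 without cat2shr replicate 2 at 24 h or 1 at 0 h, shr replicate 2 or 3 at 24 h, or shr replicate 2 at 0 h. Of 13 synthesis genes 8 had a lower three-way difference, beside 11 without shr replicate 1 and 9 without cat2shr replicate 1 at 0 h. LOX2 measured 1108, 1030 and 1029 CPM in stressed cat2shr, 1941, 1552 and 1389 CPM in unstressed cat2shr, 1569, 1000 and 1230 CPM in stressed shr, and 4279, 6065 and 1862 CPM in unstressed shr. The stressed groups of both genotypes lay below their unstressed groups, and the interaction without SHR was log2 1.06 (adjusted p = 0.0693), so the three-way difference was log2 -4.58, SE 0.63, adjusted p = 0.000117. Photorespiration genes had 2 higher and 2 lower interactions among 24 without SHR (all genes: 17.5% and 17.8%). Of the 24, 9 had a lower three-way difference (12 without shr replicate 1 and 14 without cat2shr replicate 1 at 0 h).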

How the data were processed

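RNA of 24 shoot libraries was sequenced from TruSeq Stranded mRNA libraries, per the labels' protocols. The deposited values are raw counts per gene for 33602 loci, for which the submitters' processing notes name build TAIR10, featureCounts in Subread 1.4.6, TopHat2 2.1.0 and Trim Galore 0.3.3. The sources used here state no parameters or strand setting, so reads of overlapping antisense genes may not be separated.

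Totals of the 12 libraries were 26.43 to 34.31 M counts. Genes were filtered with filterByExpr, which left 20347, and fitted with edgeR 4.0.16 (R 4.3.3, limma 3.58.1) as a quasi-likelihood model with robust estimation, TMM scaling and 1 mean per group over all 24 libraries, which gave 16 residual degrees of freedom. The interaction, both stress responses, both genotype differences, the interaction without SHR and the three-way difference were tested as contrasts, and p was adjusted by Benjamini-Hochberg over all genes. Scripts were tested on simulated data. The alternatives were DESeq2 1.42.0, RLE scaling, scaling by library size only, no filter, a filter at 5 CPM in 3 libraries, a replicate block, a fit of the 12 libraries only, and leaving out each library in turn.

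Named genes were CAT2, CAT1, CAT3, SHR, the 10 highest and 10 lowest called interactions with a mean of at least 5 CPM and more than 3 counts in every group whose call held without each library, up to 5 genes per direction called in opposite directions in the genotypes, and the 3 members per list with the smallest adjusted p. Of these, 1 gene is not reported here. Other genes named were chosen after their values were seen. The members and lists were chosen with earlier results of these data known. Of 33602 loci 32835 matched the RefSeq annotation, and 375 genes tested had no promoter sequence. Promoter sequences are from RefSeq (TAIR10.1).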

Additional observations from a re-analysis of the deposited data

Results flagged for a closer look

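The stress response differed between cat2 and Col-0 in 7781 genes, and the interaction differed between plants with and without SHR in 2794 genes. Both differences were tested as contrasts. Among the named genes and the members of the DNA damage list, 70 had a called three-way difference (interaction with SHR minus interaction without SHR). Of these, 60 were called in each of the 24 fits that left out 1 library and 69 without shr replicate 1 at 0 h. The DNA damage list was written after values had been seen, and members such as WEE1 and RPA1E are not named above.

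The genes below were named for their interaction with SHR, which the three-way difference contains, so large values of the same sign follow in part from that choice and are given as a description. Among the highest interactions, the three-way log2 difference was 6.53 for AT3G52115, 5.64 for BRCA1, 5.52 for TSO2, 5.45 for AT1G71000, 5.42 for AT4G02110, 4.51 for AT3G41762 and 4.46 for AT1G68200. Among the lowest, it was -6.58 for AT5G39520, -4.76 for CYP81D11, -4.64 for both AT3G20340 and AT1G73120, -4.58 for LOX2, -4.37 for CHLAKR, -3.77 for CML41 and -2.62 for MSRB6. Of the genes that fell in cat2 and rose in Col-0, ENH1 had -4.27, AOC2 -3.83, AT5G44005 -1.82 and AT3G55920 -1.72. Only called three-way differences are listed here. Among genes named by the same rules, it was not called for AT1G07400 (log2 1.21), AT1G32950 (1.25), AIG1 (-2.21), BAM6 (-1.51) and RXF12 (-1.3). Some calls did not hold in each of the 24 fits that left out 1 library. CHLAKR was called in 14 fits, MSRB6 in 18, AT3G41762 and CML41 in 22, and AT1G73120 in 23.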

How the results depend on the processing

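The count of 7781 genes ran from 7382 to 8240 under other scalings, filters, DESeq2, the replicate block and the 12 libraries alone, and from 6645 (without cat2 replicate 2 at 24 h) to 8531 (without cat2 replicate 3 at 24 h) when 1 of the 12 libraries was left out. Genes called higher numbered 3825, with 2537 by library size only and 2493 to 4093 with 1 library left out. Genes called lower numbered 3956, with 3336 to 5173 when 1 of the 12 was left out and up to 5402 without an shr or cat2shr library (cat2shr replicate 1 at 0 h), and those past 2-fold numbered 2098, with 1737 to 2660. The three-way count of 2794 ran from 2441 to 3429 under the other settings and from 2190 to 3143 with 1 of the 24 left out. Of the named genes under these settings and without each of the 12 libraries, 2178 values kept their side of the threshold, 79 lost the call and 1 gained it. No called value changed sign. A change of sign without a call in either fit was counted as kept. Replicate numbers were not treated as pairs. Of 18 pairs of samples with the same number, 9 correlated best with their own number, and r ran from -0.101 to 0.417. With the replicate block 8240 genes were called in the interaction and 3224 in the three-way difference. With 3 libraries per group, small differences may not be callable.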
